A study of Mus musculus with 15 samples.

Results

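The genes described here encode the proteins of the mitochondrial ribosome. They were chosen by symbol, as every listed gene whose symbol begins with Mrpl or Mrps followed by a digit, with -ps symbols (pseudogenes) left out, of which there were none. This gave 77 of the 23995 symbols in the deposited tables, and all 77 were above 0 in every library. By known position in the ribosome 50 of the products belong to the large subunit and 26 to the small one. Among the 50 are the products of Mrps18a and Mrps30, which sit in the large subunit despite their symbols. The remaining gene, Mrps36, is now known to encode an adaptor of the oxoglutarate dehydrogenase complex and not a ribosomal protein.

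RNA came from the fat around the prostate of 15 male C57BL/6J mice killed at 26 weeks of age, with 5 mice in each of 3 groups and 1 library per mouse. The HFD estradiol mice were fed, from 6 weeks of age, chow in which fat gave 60 kcal% (HFD, high-fat diet), and received a pellet with 0.25 mg of estradiol, made to release it over 60 days, after 12 weeks of diet. The HFD placebo mice ate that diet and received a placebo pellet at that time. The LFD (low-fat diet) mice were fed 10 kcal% fat and no pellet was implanted, so every contrast with LFD changes both diet and implantation. All mice were unmodified animals of 1 strain, and tissue was taken 8 weeks after the pellets were placed.

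The mitochondrial ribosome, or mitoribosome, makes the few proteins that mitochondrial DNA encodes, all of them core subunits of the respiratory chain and the ATP synthase. Its own proteins are encoded in the nucleus, made in the cytosol and imported, and they are assembled on RNAs that mitochondrial DNA encodes. Many have a relative in bacterial ribosomes, and others were added during the evolution of mitochondria. In adipose tissue, mitochondrial content and respiration are known to differ between white and brown fat cells and to be reduced in obesity.

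Promoters of these genes are known for sites of NRF1, of GABP and other ETS factors, and of YY1, and 4 promoters are shown because their genes changed below and each holds such a site. They are 180 bases long, from 150 before the transcript start to 30 after it, taken from the RefSeq promoter table of build GRCm38.p6 and printed 5′ to 3′ on the gene's own strand. Capitals mark the NRF1 letters GCATGCGC in Mrpl9 and Mrpl32, the ETS letters CCGGAAGT in Mrpl51 and the YY1 letters AAGATGGCG in Mrps18a, on either strand. The positions are chr3:94443186-94443365 on the plus strand for Mrpl9, chr13:14613008-14613187 on the minus strand for Mrpl32, chr6:125192050-125192229 on the plus strand for Mrpl51 and chr17:46110854-46111033 on the plus strand for Mrps18a.
Mrpl9: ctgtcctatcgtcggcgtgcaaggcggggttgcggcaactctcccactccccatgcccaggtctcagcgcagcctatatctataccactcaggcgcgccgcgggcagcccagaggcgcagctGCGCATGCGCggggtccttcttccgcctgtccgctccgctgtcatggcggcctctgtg
Mrpl32: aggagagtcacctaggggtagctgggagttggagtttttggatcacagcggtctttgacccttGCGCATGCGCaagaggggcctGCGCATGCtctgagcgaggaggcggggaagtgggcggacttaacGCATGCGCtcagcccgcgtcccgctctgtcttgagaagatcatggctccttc
Mrpl51: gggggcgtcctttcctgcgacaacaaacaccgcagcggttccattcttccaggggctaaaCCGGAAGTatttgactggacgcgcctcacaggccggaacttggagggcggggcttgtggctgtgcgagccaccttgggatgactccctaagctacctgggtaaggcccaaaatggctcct
Mrps18a: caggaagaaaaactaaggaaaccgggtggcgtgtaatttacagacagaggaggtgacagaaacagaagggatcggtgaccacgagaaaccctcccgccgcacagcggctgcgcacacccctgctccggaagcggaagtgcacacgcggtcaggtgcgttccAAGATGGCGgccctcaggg

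In Mrpl32 the NRF1 letters occurred 4 times, and in Mrpl9 they occurred 2 times. The NRF1 letters read on one strand overlap those on the other where they sit back to back, and each was counted. In the 300-base promoters, from 250 before to 50 after the start, 68 of the 77 genes had an entry. NRF1 letters were in 8 of the 68, a share of 11.76%, against 2.8% of all 27025 promoters of that length and 5.87% of the 4222 promoters of genes tested here. ETS letters were in 11 of the 68 (16.18%), against 4% of all promoters and 8.83% of those of tested genes. YY1 letters were in 8 (11.76%), against 1.49% of all promoters and 3.67% of those of tested genes. At least 1 of these 3 motifs was found in 25 of the 68 (36.76%), against 7.85% of all promoters and 17.17% of those of tested genes, and in the capitals above none of the 3 overlaps another.

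Other motifs were searched in the same windows and on both strands. The E-box CACGTG was in 5 of the 68 (7.35%), against 7.24% of all promoters and 10.85% of those of tested genes. The TATA box TATAAA was in 4 (5.88%), against 14.16% of all promoters and 7.58% of those of tested genes. The letters TCAAGGTCA of the estrogen-related receptor ESRRA were in none of the 68, in 0.41% of all promoters and in 0.26% of those of tested genes. The shorter nuclear receptor half-site AGGTCA, which is contained in the ESRRA letters, was in 11 (16.18%), against 16.04% of all promoters and 12.01% of those of tested genes. Of the 11 genes that fell in placebo mice below, 9 had an entry, of which 2 held NRF1 letters, 1 ETS letters and 1 YY1 letters. A match is a description of letters and does not show that a factor binds, and no match says only that these letters are not in this window.

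The genes also share features of size and position. All 77 were located in GENCODE vM21 (GRCm38, which is mm10), on 17 chromosomes, with most (10) on chromosome 11. For 18 of the 77 (23.38%) another coding gene began within 1000 bases on the opposite strand, pointing away, against 509 of 5307 tested coding genes (9.59%). Examples are Mrps12, whose start lies 172 bases from that of Sars2, a mitochondrial seryl-tRNA synthetase, Mrpl32, 75 bases from the proteasome gene Psma2, and Mrpl49, 59 bases from the ribosomal gene Fau. Their median longest coding transcript was 1316 bases, against 2951 bases in tested coding genes, and in 24 of them it was under 1000 bases.

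Exons of 23 of the 77 overlap those of another coding gene, among them Mrps34 (with Mapk8ip3 and Nme3), Mrps6 (with Slc5a3 and Gm49711), Mrpl49 (with Syvn1), Mrpl9 (with Oaz3), Mrps30 (with B430218F22Rik) and the neighbours Mrpl46 and Mrps11. In GRCm38 the genes turned to most below span chr4:126046925-126055532 (Mrps15), chr6:147042764-147073991 (Mrps35), chr17:46110986-46128910 (Mrps18a), chr19:6053622-6057785 (Mrpl49), chr6:125191801-125196269 (Mrpl51), chr17:24895116-24897502 (Mrps34), chr13:14608184-14613165 (Mrpl32), chr5:129715497-129722556 (Mrps17) and chr16:92058270-92112227 (Mrps6). Named pseudogenes exist for Mrpl23, Mrpl48 and Mrps36. The libraries were stranded per the labels, but no source used here says whether quantification used the strand, so values of these genes are uncertain.

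Values are deposited FPKM (fragments per kilobase of transcript, a level corrected for length and depth). Divided by 1 factor per library, they are called scaled FPKM here. They are per length, but the length taken for each gene is not known, so levels of different genes compare only roughly. Differences are log2 fold changes of scaled FPKM + 1, so changes of weakly expressed genes come out too small, from limma fitted over 5615 genes that reached a scaled FPKM of 1 in at least 5 libraries. Of the 77 genes 59 passed this filter, 38 of the large subunit, 20 of the small one and Mrps36. A gene is said to have risen or fallen where its limma p, adjusted by Benjamini and Hochberg over all 5615 genes, was below 0.05.

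Facts of the libraries bear on these values. The sum of FPKM was 37561 to 60725 for HFD estradiol, 34544 to 105910 for HFD placebo and 34449 to 38755 for LFD. The symbol Mir6236 held 15.7 to 49.9% of that sum in HFD estradiol, 10.2 to 47.9% in HFD placebo and 33.1 to 53.1% in LFD. The source of the reads listed under it was not tested. A scaled FPKM of 1 in a transcript of 1 kb corresponded, judged by how low values are spaced, to about 16.4 to 42.7 fragments in HFD estradiol, 15.7 to 99.1 in HFD placebo and 9.17 to 17.9 in LFD. The tissue carried adipocyte markers (Adipoq, Plin1 and others, 12 of 12 found), whose summed level was 1759 to 2479 for HFD estradiol, 1070 to 1698 for HFD placebo and 1878 to 2801 for LFD. Summed macrophage markers (12 of 12 found) were 59.8 to 180.8 for HFD estradiol, 202.6 to 561.6 for HFD placebo and 45.5 to 114.6 for LFD. In bulk tissue, fewer cells of a type and less RNA per cell cannot be told apart, and the part of cell composition in the results was not tested. All LFD libraries were sequenced on lane 5 and all estradiol libraries on lane 6, with placebo libraries 1 to 3 on lane 5 and 4 and 5 on lane 6, per the names of the deposited libraries.

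LFD library 2 stood apart, and values that rest on it are given with and without it. It was the shallowest (9.17 fragments), had the largest Mir6236 share and the highest brown fat markers, with Ucp1, the uncoupling protein of brown fat, at 34.2 and Cidea, a lipid droplet protein, at 17.4. Elsewhere Ucp1 reached 13.5 and 26.6 in placebo mice 3 and 4 and at most 4.96 in the other libraries. It held the highest of the 15 values in 30 of the 77 genes (38.96%), against 18.45% of all tested genes. LFD library 5 alone had Spink3, a prostate gene, at 125 (0 to 0.187 elsewhere).

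Most of the mitoribosomal genes were expressed at a mean level of 1 to 5 scaled FPKM. The mean over the 15 libraries ran from 0.238 for Mrpl19 to 10.7 for Mrps21, a ratio of 44.9, and 57 of the 77 lay between 1 and 5. The median of the 59 tested genes was 1.78 scaled FPKM, near the 1.88 of all tested genes. The highest were Mrps21, a small subunit protein, Mrpl20 of the large subunit, Mrps6 of the small one and Mrpl54, which lies by the stalk of the large subunit that receives the translation factors. Mrps21 averaged 10.6 ± 1.72 in HFD estradiol, 9.65 ± 1.89 in HFD placebo and 11.9 ± 3.14 in LFD (SD, n = 5 each), and the 3 groups overlapped. The 4 lowest of the tested genes were Mrps26, Mrps31, Mrpl46 and Mrps9, with means from 1.05 to 1.11. None of these 4 passed the test in a comparison. The longest coding transcripts of Mrps21, Mrpl20, Mrps6 and Mrpl54 were 488, 764, 846 and 604 bases, and that of Mrpl19 was 5000. The part of transcript length in the order of levels was not tested.

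The spread between mice was wider for these genes than for the average gene. The median coefficient of variation of the 59 was 16.5% in HFD estradiol, 15.7% in HFD placebo and 25.1% in LFD. Over all tested genes it was 13.2% in HFD estradiol, 14.1% in HFD placebo and 16.0% in LFD. The larger spread in LFD goes with fewer fragments in LFD libraries 2 to 5 than in any other library, whose part in it was not tested.

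**Figure D1:**
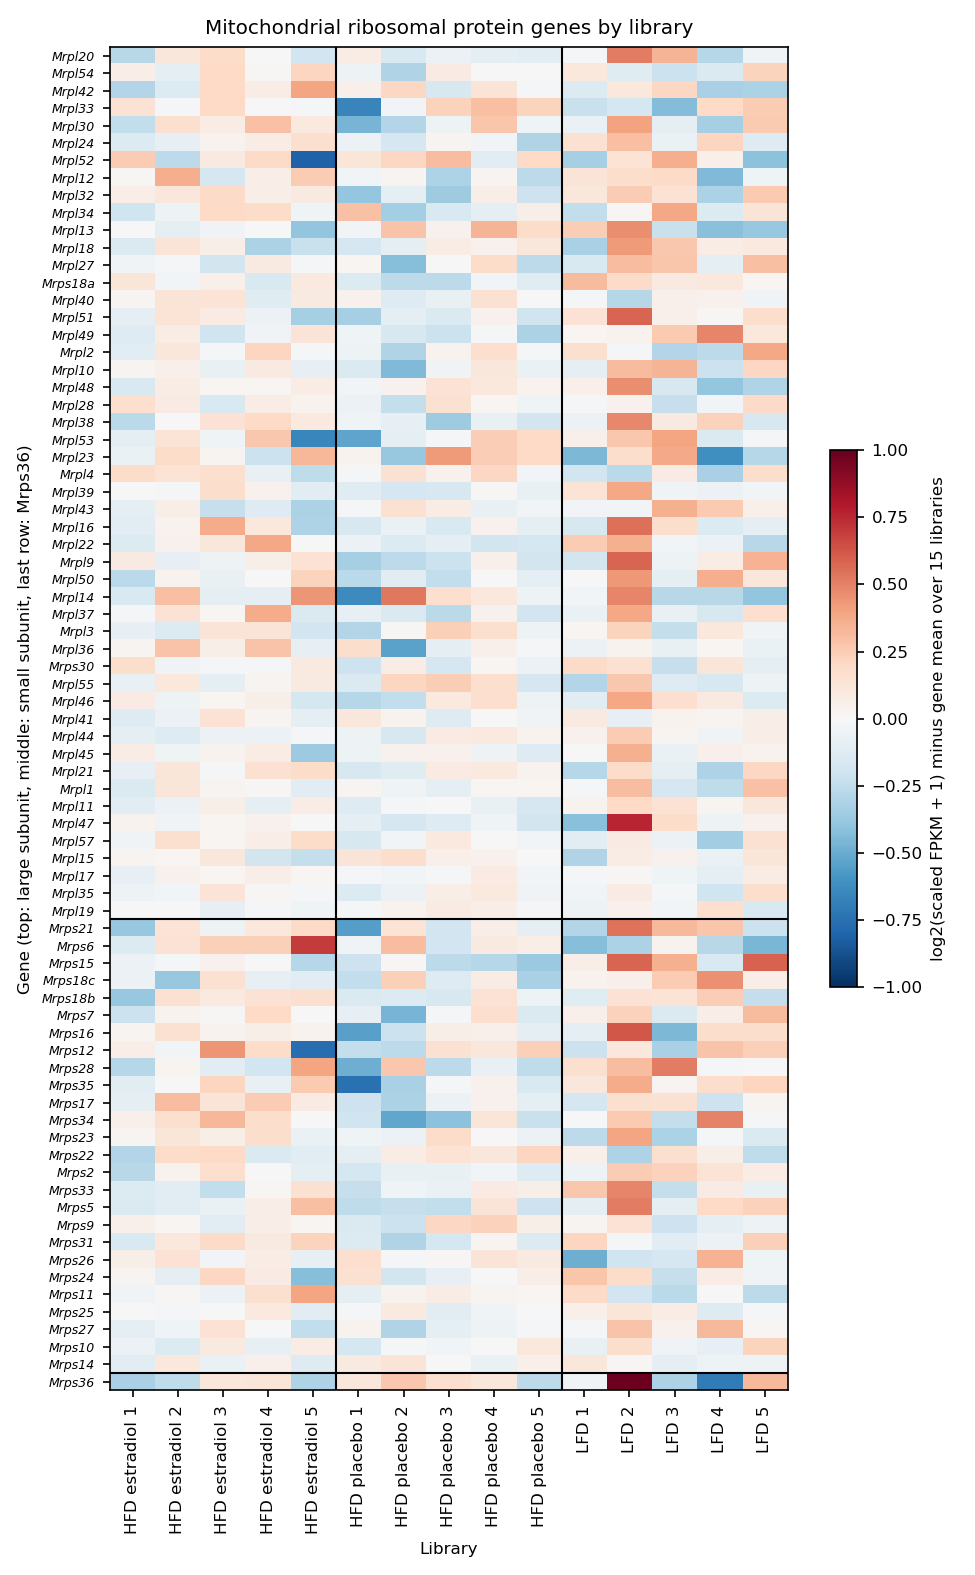
Each row is 1 of the 77 genes and each column 1 library; colour is log2(scaled FPKM + 1) minus the gene's mean over the 15 libraries, drawn between -1 and 1. Red cells gather in LFD library 2, which holds the highest value of 30 genes, and the lowest values are most frequent in placebo 2 (16 genes, 20.78%, against 9.492% of all tested genes), LFD 4 (14 genes, 18.18%, against 6.233%) and placebo 1 (13 genes, 16.88%, against 11.31%).

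Summed over all 77, the level was 132.3, 151.2, 154.6, 154.2 and 148.5 in the estradiol mice, 123.6, 135.3, 138.4, 154.2 and 135.9 in the placebo mice and 138.1, 186.8, 152.5, 143.2 and 149.4 in the LFD mice. The groups overlapped, with placebo 1 the lowest and LFD 2 the highest. The mean was 148.1 ± 9.21 in HFD estradiol, 137.4 ± 10.96 in HFD placebo and 154.0 ± 19.2 in LFD. The LFD mean includes LFD 2. The medians were 151.2 in HFD estradiol, 135.9 in HFD placebo and 149.4 in LFD, so estradiol and LFD mice changed order between mean and median. The 50 large subunit genes summed to 93.7 ± 4.47 in HFD estradiol, 88.3 ± 6.63 in HFD placebo and 96.7 ± 12.5 in LFD. The 26 small subunit genes summed to 53.5 ± 5.07 in HFD estradiol, 47.9 ± 4.95 in HFD placebo and 55.9 ± 6.92 in LFD, so both subunits had their lowest mean in placebo mice.

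**Figure D2:**
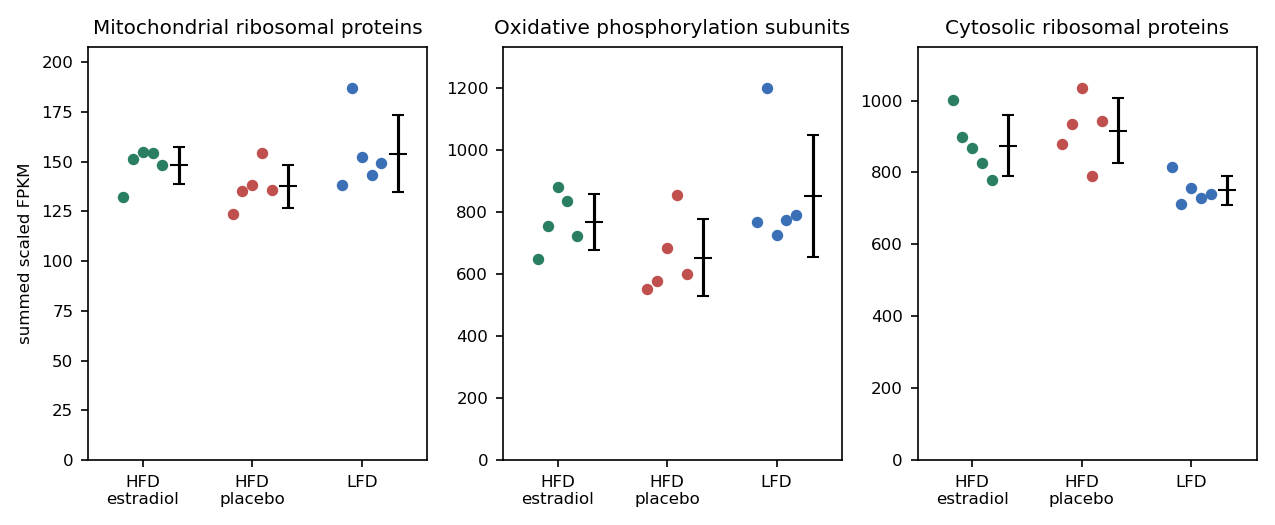
Summed scaled FPKM per mouse, on the vertical axis, of the 77 mitochondrial ribosomal protein genes, of 82 nuclear oxidative phosphorylation genes and of 84 cytosolic ribosomal protein genes, with the mean and SD of each group of 5 as a bar. The first 2 sums have their lowest mean in placebo mice (137.4 and 653.8) and the third its lowest mean in LFD mice (750.5).

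Placebo mice on the high-fat diet were set against LFD mice to see what the diet, with implantation, went with. At this scaling 11 of the 59 tested genes fell and 0 rose (limma). Without the scaling (FPKM as deposited), which puts the all-gene median at 0.77, none of the 59 fell and 21 rose. At that setting 3009 of all 5615 tested genes rose and 18 fell. The 11 that fell are a share near the background, since 22.0% of all tested genes fell and 21.3% rose (43.3% in all). At an unadjusted p below 0.05, 16 of the 59 were lower and 1 was higher, against 50.8% of all tested genes in either direction. The median log2 fold change of the 59 was -0.14, against -0.014 for all tested genes, and 43 of the 59 were negative. With FPKM as deposited the median of the 59 was 0.67, which is 0.094 below that of all tested genes, and with a constant sum it was 0.18, which is 0.11 below it. All 59 changes were small, from -0.51 for Mrps15 to 0.34 for Mrps6. Leaving out LFD 2, which held many of the highest values, left 4 genes lower (Mrps15, Mrps18a, Mrps35 and Mrpl49) and 2 higher (Mrpl13 and Mrpl48), with a median of -0.066. Leaving out placebo 1 also left 4 lower. Of all tested genes 1112 were lower and 1137 higher without LFD 2, and 1112 lower and 1109 higher without placebo 1. Within lane 5, 6 fell and 0 rose, beside 985 of all tested genes lower and 1062 higher.

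In the large subunit 6 of the 38 tested genes (15.8%) fell and 0 rose, against 22.0% and 21.3% of all tested genes. The median was -0.11, and those that fell were Mrps18a, Mrpl49, Mrpl51, Mrpl9, Mrpl50 and Mrpl32. Mrps18a, 1 of 3 related genes that in bacteria are a single one, had 2.55, 2.21, 2.39, 1.94 and 2.50 scaled FPKM in estradiol mice, 1.98, 1.72, 1.73, 2.21 and 2.01 in placebo mice and 3.08, 2.74, 2.47, 2.52 and 2.31 in LFD mice. Every placebo mouse lay below every LFD mouse, with the closest values at 2.21 and 2.31, and Mrps18a fell by 0.31 in placebo mice against LFD mice (SE 0.073, limma adjusted p 0.00308). It passed in all 17 alternatives at this scaling, the adjusted p running from 0.00187 to 0.01. Its relatives Mrps18b and Mrps18c, whose products are in the small subunit, differed by -0.10 (limma adjusted p 0.493) and -0.25 (limma adjusted p 0.105).

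Mrpl49, a mitochondria-specific protein of the large subunit, had 1.75, 2.18, 1.62, 1.94 and 2.31 in estradiol mice, 1.92, 1.70, 1.59, 1.98 and 1.42 in placebo mice and 2.06, 2.09, 2.61, 3.24 and 2.25 in LFD mice. Placebo and LFD mice again did not overlap, with 1.98 and 2.06 as the closest values, and the gene fell by 0.33 in placebo against LFD mice (SE 0.095, limma adjusted p 0.00995). Within lane 5 its adjusted p was 0.0511. Mrps18a and Mrpl49 were the only tested members whose placebo and LFD groups did not overlap, whereas 13.0% of all tested genes were lower without overlap and 14.6% higher (27.6% in all).

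Mrpl51, also mitochondria-specific, had 2.04, 2.55, 2.42, 2.10 and 1.56 in estradiol mice, 1.57, 2.03, 1.91, 2.32 and 1.82 in placebo mice and 2.57, 3.84, 2.34, 2.25 and 2.65 in LFD mice. Placebo 4 lay above the lowest LFD mouse, and LFD 2 far above the rest. The gene fell by 0.34 (limma adjusted p 0.0212), and without LFD 2 or without placebo 1 it did not pass. Mrpl9 has a bacterial relative and overlaps Oaz3. It averaged 1.45 ± 0.16 in HFD estradiol, 1.10 ± 0.22 in HFD placebo and 1.70 ± 0.60 in LFD, and fell by 0.34 in placebo against LFD mice (limma adjusted p 0.0293), passing in 8 of 17 alternatives at this scaling. Mrpl50, chosen after its values were seen because it is among the 11, averaged 1.34 ± 0.29 in HFD estradiol, 1.14 ± 0.17 in HFD placebo and 1.66 ± 0.43 in LFD (limma adjusted p 0.0301 between placebo and LFD mice).

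In the small subunit 5 of the 20 tested genes (25%) fell and 0 rose, against 22.0% and 21.3% of all tested genes. The median was -0.21, and 1 gene was higher at an unadjusted p below 0.05. Those that fell were Mrps15, Mrps35, Mrps34, Mrps5 and Mrps2. Mrps15, which has a bacterial relative that binds ribosomal RNA, had 3.11, 3.23, 3.40, 3.28 and 2.52 in estradiol mice, 2.72, 3.32, 2.58, 2.51 and 2.31 in placebo mice and 3.48, 5.42, 4.48, 2.85 and 5.44 in LFD mice. Only LFD 4 lay within the placebo range, and the gene fell by 0.51 in placebo against LFD mice (SE 0.129, limma adjusted p 0.00444). This was the largest difference among the 59, and it was lost within lane 5 (adjusted p 0.0741), where 3 placebo mice remain.

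Mrps35, a mitochondria-specific protein, had 1.53, 1.74, 2.16, 1.58 and 2.27 in estradiol mice, 0.627, 1.17, 1.68, 1.80 and 1.45 in placebo mice and 1.94, 2.52, 1.78, 2.08 and 2.15 in LFD mice. Placebo 4 at 1.80 was the only placebo value above an LFD value, and Mrps35 fell by 0.42 (SE 0.127, limma adjusted p 0.0135), passing in all 17 alternatives at this scaling. Mrps5, with a bacterial relative at the messenger RNA entry side, had 0.956, 1.01, 1.06, 1.26 and 1.66 in estradiol mice, 0.812, 0.840, 0.818, 1.36 and 0.868 in placebo mice and 1.03, 2.08, 1.02, 1.48 and 1.53 in LFD mice. All placebo values but that of placebo 4 lay below every LFD value, and the gene fell by 0.31 (limma adjusted p 0.0422), passing in 8 of 17 alternatives. Mrps2, chosen after its values were seen, averaged 1.31 ± 0.26 in HFD estradiol, 1.20 ± 0.087 in HFD placebo and 1.57 ± 0.22 in LFD (limma adjusted p 0.0296 between placebo and LFD mice).

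The 9 of these 11 that the rule for named genes takes had the opposite sign with FPKM as deposited, between 0.40 and 0.60, all below the shift of all genes. By origin, 2 of 22 tested large subunit genes with a bacterial relative fell (9.09%) and 4 of 16 mitochondria-specific ones did (25%). In the small subunit 3 of 12 with a bacterial relative and 2 of 8 mitochondria-specific ones fell (25% in each). Over all tested genes 22.0% fell. Mrps18a, 1 of the 4, and Mrps18b were counted as mitochondria-specific, although they are related to a single gene of bacteria. The classes are therefore approximate, and the difference between them was not tested.

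**Figure D3:**
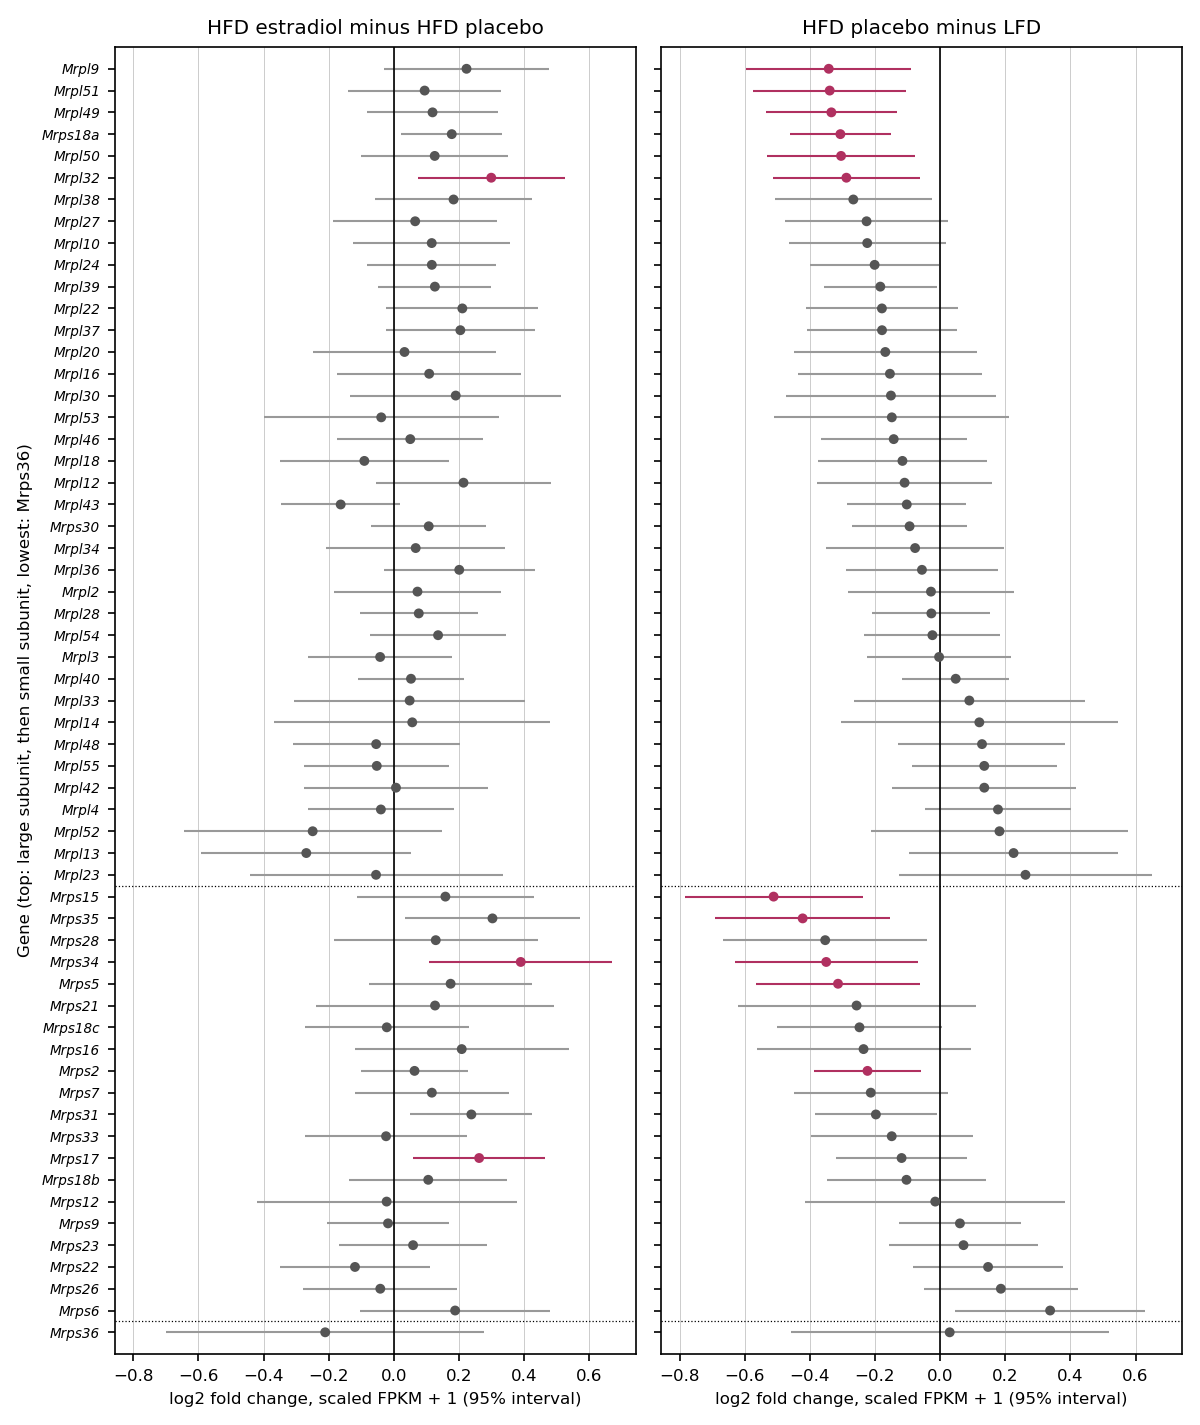
Log2 fold changes on the log2(scaled FPKM + 1) scale, with 95% intervals from limma, of the 59 tested genes in HFD estradiol minus HFD placebo (left) and HFD placebo minus LFD (right); coloured points passed the test. On the right 11 points passed, all below 0. FPKM as deposited gives 21 above 0 there, beside 3009 of all 5615 tested genes. On the left 3 passed, all above 0, where FPKM as deposited gives 0. Both panels use the same placebo mice.

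Estradiol-treated mice were set against placebo mice on the same diet to see what estradiol went with. Of the 59, 3 rose (Mrps34, Mrpl32 and Mrps17) and 0 fell (limma). Without the scaling (FPKM as deposited), which shifts the all-gene median down to -0.27, none of the 59 passed, beside 4.9% of all tested genes. At the main scaling the background was 14.3% of all tested genes higher and 16.0% lower (30.4% in all). The share of members that rose was below it. At an unadjusted p below 0.05, 6 were higher and 0 lower, against 40.4% of all tested genes in either direction. The median log2 fold change of the 59 was 0.094, against 0.0082 for all tested genes, within a range from -0.27 for Mrpl13 to 0.39 for Mrps34, and 42 of the 59 were positive. None of the 59 tested members had estradiol and placebo groups that lay apart without overlap, against 21.2% of all tested genes, 10.0% higher and 11.2% lower. With lane as a term in the fit, and within lane 6, none of the 59 passed. Both settings compare estradiol mice with placebo 4 and 5 only, so they give the same median, 0.028, and are not separate checks. The median of all tested genes was 0.0069 there, and 12.66% of them passed with lane as a term and 12.13% within lane 6.

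Mrps34, which the small subunit needs to stay stable in mice, had 1.60, 1.81, 2.17, 1.85 and 1.52 in estradiol mice, 1.19, 0.753, 0.894, 1.75 and 1.17 in placebo mice and 1.53, 2.02, 1.14, 2.56 and 1.50 in LFD mice. All placebo mice but placebo 4, at 1.75, lay below every estradiol mouse. The gene rose by 0.39 in estradiol against placebo mice (SE 0.132, limma adjusted p 0.035), and fell by 0.35 in placebo against LFD mice (SE 0.132, limma adjusted p 0.0425). The comparisons share the placebo mice. The rise of Mrps34 passed in 7 of 17 alternatives at this scaling and its fall in 9 of 17. Mrps34 overlaps exons of Mapk8ip3 and Nme3, so reads of those genes may enter its value.

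Mrpl32, a large subunit protein that the m-AAA protease has to cut before it can be built into the ribosome, had 2.92, 3.03, 3.27, 2.90 and 2.97 in estradiol mice, 1.86, 2.48, 1.92, 2.92 and 2.24 in placebo mice and 3.04, 3.46, 3.13, 2.01 and 3.48 in LFD mice. The estradiol mice lay close together, and only placebo 4 reached them. Mrpl32 rose by 0.30 in estradiol against placebo mice (SE 0.106, limma adjusted p 0.0433) and fell by 0.29 in placebo against LFD mice (SE 0.106, limma adjusted p 0.0382). The rise of Mrpl32 passed in 5 of 18 alternatives at this scaling and its fall in 7 of 18. Its promoter is the one above with 4 copies of the NRF1 letters.

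Mrps17, with a bacterial relative in the small subunit, had 1.47, 2.28, 1.89, 2.15 and 1.80 in estradiol mice, 1.30, 1.13, 1.54, 1.72 and 1.47 in placebo mice and 1.35, 1.96, 1.94, 1.29 and 1.70 in LFD mice. It rose by 0.26 in estradiol against placebo mice (SE 0.095, limma adjusted p 0.0476), differed by -0.12 in placebo against LFD mice (limma adjusted p 0.336), and its sign between estradiol and placebo mice turned with FPKM as deposited. The rise of Mrps17 passed in 5 of 17 alternatives at this scaling. The 3 calls were close to the threshold. Leaving out single mice gave between 0 and 6 members higher: 0 without estradiol 2 or 3 or without placebo 1, 2, 3 or 5, and 6 without placebo 4.

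**Figure D4:**
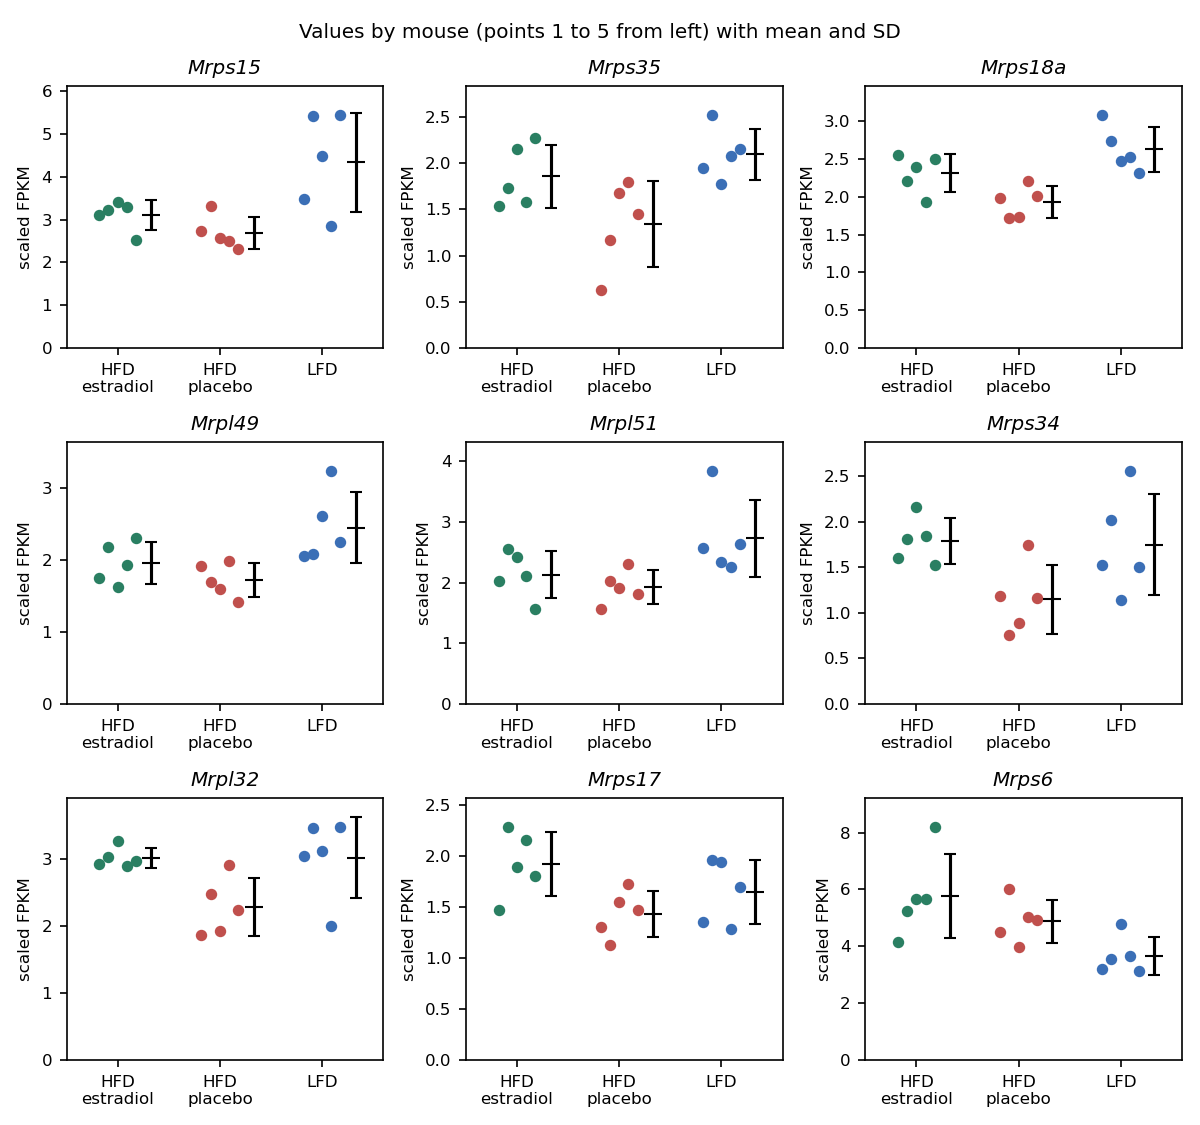
Scaled FPKM of 9 genes on the vertical axis, 1 point per mouse in the order of the mouse numbers, with the mean and SD of each group of 5 as a bar. Placebo values of Mrps18a (1.72 to 2.21) and Mrpl49 (1.42 to 1.98) lie below all LFD values, and placebo 4 is the highest of its group in 7 of the 9 panels.

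Estradiol and LFD mice were compared last. Here Mrps6 rose, 0 of the 59 fell (limma), and the background was 3.95% of all tested genes higher and 3.74% lower (7.69% in all). At an unadjusted p below 0.05, 1 was higher and 5 lower, against 21.3% of all tested genes in either direction. None of the 59 tested members had groups without overlap, against 8.05% of all tested genes (4.2% higher and 3.85% lower). The median of the 59 was -0.037, against -0.0049 for all tested genes. Its sign rested on single mice. Without LFD 2 the median of the 59 was 0.023, against -0.0031 for all tested genes, and none of the 59 passed. Without estradiol 5 it was 0.0049, against -0.0067 for all tested genes, and again none passed. Mrps6, with a bacterial relative at the platform of the small subunit, had 4.15, 5.24, 5.67, 5.65 and 8.19 in estradiol mice, 4.52, 6.01, 3.96, 5.01 and 4.92 in placebo mice and 3.21, 3.54, 4.78, 3.67 and 3.11 in LFD mice. LFD 3 at 4.78 lay among the estradiol mice and estradiol 5 above all others. Mrps6 rose by 0.53 in estradiol against LFD mice (SE 0.137, limma adjusted p 0.0283) and differed by 0.34 in placebo against LFD mice (limma adjusted p 0.0575). It was the highest log2 fold change among the members in both. It passed in 9 of 17 alternatives at this scaling and not with lane as a term, and its exons overlap those of Slc5a3, a solute carrier. Its share of reads from that gene was not tested.

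In the 3 group means, placebo was the lowest for 37 of the 59 tested genes (62.71%), against 42.6% of all tested genes. LFD was the highest for 30 of the 59, against 38.8% of all tested genes. Estradiol was the highest for 19, against 22.5% of all tested genes. Over all 77 genes placebo had the lowest mean for 42. These counts share the placebo mice with both comparisons and LFD 2 with many of the highest values.

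At known sites of the ribosome no tested stalk, tunnel or central protuberance gene passed (limma). The stalk of the large subunit that recruits translation factors was represented by 4 tested genes (Mrpl10, Mrpl12, Mrpl53 and Mrpl54), with 0 calls in any comparison and a median of -0.13 in placebo minus LFD. Mrpl12, whose product has been described to bind the mitochondrial RNA polymerase as well, averaged 3.07 ± 0.58 in HFD estradiol, 2.50 ± 0.39 in HFD placebo and 2.80 ± 0.63 in LFD (limma adjusted p 0.22 between estradiol and placebo mice). The 6 genes of the central protuberance, a crest of the large subunit, had 0 calls (limma) and a median of -0.13 in placebo minus LFD. Mrps12, the decoding site protein whose bacterial relative carries streptomycin resistance, averaged 2.33 ± 0.91 in HFD estradiol, 2.30 ± 0.52 in HFD placebo and 2.35 ± 0.62 in LFD. Mrps30 averaged 1.30 ± 0.15 in HFD estradiol, 1.14 ± 0.17 in HFD placebo and 1.29 ± 0.28 in LFD.

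Mrps36, the gene whose product is not ribosomal, had 0.695, 0.775, 1.29, 1.31 and 0.707 in estradiol mice, 1.30, 1.55, 1.38, 1.29 and 0.767 in placebo mice and 1.07, 3.19, 0.702, 0.302 and 1.66 in LFD mice. The LFD mice covered the range of the other groups, with LFD 2 the highest of all 15 and LFD 4 the lowest, and no comparison passed.

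Below the tested level were 18 genes: Mrpl1, Mrpl11, Mrpl15, Mrpl17, Mrpl19, Mrpl21, Mrpl35, Mrpl41, Mrpl44, Mrpl45, Mrpl47 and Mrpl57 of the large subunit and Mrps10, Mrps11, Mrps14, Mrps24, Mrps25 and Mrps27 of the small one. Their mean level over the 15 libraries ran from 0.238 to 0.901. None passed in 54 exact two-sided permutation tests of the difference in mean, with a lowest adjusted p of 0.214, and 5 had an unadjusted exact p below 0.05. With 5 mice a group this test cannot give a p below 0.0079, and the 0.214 is that smallest p after adjustment over the 54 tests. A pass was thus out of reach unless many tests sat at that smallest p.

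That smallest p was reached by Mrpl11 and Mrpl47. Mrpl11, the stalk base protein, averaged 0.697 ± 0.10 in HFD estradiol, 0.632 ± 0.079 in HFD placebo and 0.853 ± 0.093 in LFD, and placebo mice lay below LFD mice without overlap (exact permutation p 0.00794). In the limma fit with no filter, over 18880 genes, Mrpl11 was among 6 of the 77 members lower in placebo against LFD mice. Of all 18880 genes 1825 were lower and 2083 higher in that fit. Mrpl47, at the exit of the peptide tunnel, averaged 0.695 ± 0.037 in HFD estradiol, 0.544 ± 0.061 in HFD placebo and 0.873 ± 0.60 in LFD, and estradiol mice lay above placebo mice without overlap (exact permutation p 0.00794). Mrpl44, which has the fold of a ribonuclease, averaged 0.750 ± 0.052 in HFD estradiol and 0.934 ± 0.15 in LFD (exact permutation p 0.0159). Mrps27, an RNA-binding protein of the small subunit, averaged 0.553 ± 0.13 in HFD placebo and 0.802 ± 0.21 in LFD (exact permutation p 0.0397). Mrpl45, which anchors the ribosome to the inner membrane, averaged 0.776 ± 0.21 in HFD estradiol, 0.786 ± 0.090 in HFD placebo and 0.925 ± 0.23 in LFD, and none of its comparisons had an exact permutation p below 0.05. Mrpl41, of the large subunit, averaged 0.851 ± 0.14 in HFD estradiol, 0.876 ± 0.11 in HFD placebo and 0.909 ± 0.083 in LFD.

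The other genes of mitochondrial translation were mostly too low to test. Of the 6 mitoribosomal proteins with other symbols 5 were tested and none passed in any comparison (limma), with 1 higher in estradiol against placebo mice at an unadjusted p below 0.05. Dap3, a small subunit GTPase, was below the level. Of 29 genes of mitoribosome assembly 7 were tested. In placebo against LFD mice 2 of the 7 fell and 0 rose, and in estradiol against placebo mice 1 rose and 0 fell. Over all tested genes 22.0% fell and 21.3% rose in the first comparison, and 14.3% rose and 16.0% fell in the second. Mterfd1, which takes part in building the large subunit, had 0.762, 0.992, 0.833, 1.09 and 1.27 in estradiol mice, 0.508, 0.462, 0.730, 0.871 and 0.615 in placebo mice and 1.13, 1.20, 0.979, 1.05 and 0.985 in LFD mice. Every placebo mouse lay below every LFD mouse. It fell by 0.34 in placebo against LFD mice (limma adjusted p 0.00293) and rose by 0.28 in estradiol against placebo mice (limma adjusted p 0.0152).

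Spg7, a subunit of the m-AAA protease, averaged 1.65 ± 0.32 in HFD estradiol, 1.41 ± 0.25 in HFD placebo and 1.87 ± 0.26 in LFD and fell by 0.25 in placebo against LFD mice (limma adjusted p 0.0361). Mterfd2, another assembly factor, rose by 0.48 in estradiol against LFD mice, without overlap (limma adjusted p 0.0382). Of 14 translation factors 4 were tested. In placebo against LFD mice, where 22.0% of all tested genes fell and 21.3% rose, 2 of the 4 fell and none rose. They were Tufm, the elongation factor that brings tRNAs to the ribosome (-0.25, limma adjusted p 0.0184), and Gfm2, which helps to recycle ribosomes (-0.20, limma adjusted p 0.022). Of 20 mitochondrial tRNA synthetases 4 were tested, and Iars2, the isoleucyl one, fell by 0.42 in placebo against LFD mice (limma adjusted p 0.00163) and differed by 0.25 in estradiol against placebo mice (limma adjusted p 0.0504). Lars2 is listed at 0 in all libraries.

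Genes of mitochondrial DNA and its transcription gave 3 tested of 14. Tfb2m, which opens mitochondrial promoters for the RNA polymerase, had 1.01, 1.04, 1.12, 1.16 and 0.995 in estradiol mice, 0.679, 0.581, 0.767, 0.876 and 0.740 in placebo mice and 0.950, 1.39, 0.992, 1.12 and 1.11 in LFD mice. All placebo mice lay below both other groups. It rose by 0.26 in estradiol against placebo mice (limma adjusted p 0.00554) and fell by 0.29 in placebo against LFD mice (limma adjusted p 0.00174). Tfam, which packages mitochondrial DNA, was below the level, at 0.433 ± 0.067 in HFD estradiol, 0.376 ± 0.074 in HFD placebo and 0.431 ± 0.059 in LFD. Polrmt, the RNA polymerase, was below it too, at 0.481 ± 0.014 in HFD estradiol, 0.429 ± 0.068 in HFD placebo and 0.526 ± 0.040 in LFD.

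Regulators of mitochondrial content gave 2 tested of 13, one of them Gabpa, which did not pass (limma adjusted p 0.19 in placebo against LFD mice). Ppargc1a, Ppargc1b, Esrra and Nrf1 were below the level. Ppargc1b, a coactivator of mitochondrial genes, had 0.380, 0.286, 0.347, 0.355 and 0.298 in estradiol mice, 0.148, 0.132, 0.197, 0.288 and 0.105 in placebo mice and 0.350, 0.455, 0.464, 0.398 and 0.429 in LFD mice. Placebo mice lay below LFD mice without overlap, and placebo 4 at 0.288 lay just above the lowest estradiol mouse. No test was run on it.

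Proteases and chaperones of the mitochondrial matrix and inner membrane gave 8 tested of 10. In placebo against LFD mice 6 (75%) fell and 0 rose, where 22.0% of all tested genes fell and 21.3% rose. In estradiol against placebo mice 3 (37.5%) rose and 0 fell, where 14.3% of all tested genes rose and 16.0% fell. Trap1, a mitochondrial HSP90 chaperone, averaged 6.27 ± 0.78 in HFD estradiol, 3.99 ± 0.84 in HFD placebo and 6.61 ± 1.21 in LFD, falling by 0.61 in placebo against LFD mice (limma adjusted p 0.00081) and rising by 0.55 in estradiol against placebo mice (limma adjusted p 0.00258). Clpp and Clpx, the protease and the unfoldase that make up one complex, fell by 0.50 and 0.44 in placebo against LFD mice (limma adjusted p 0.00322 and 0.00132) and rose by 0.57 and 0.32 in estradiol against placebo mice (limma adjusted p 0.00175 and 0.0165). Hspd1, the matrix chaperonin, fell by 0.43 in placebo against LFD mice (limma adjusted p 0.00972). With FPKM as deposited the placebo minus LFD values of all 10 pathway genes just named as falling were positive, from 0.29 for Mterfd1 to 0.60 for Hspd1, below the shift of all genes.

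The mitoribosomal genes lay between the other large groups they can be set beside. Of 74 tested nuclear genes of oxidative phosphorylation 24 (32.43%) fell and 0 rose in placebo against LFD mice (limma). Their median was -0.28, and 31 were lower at an unadjusted p below 0.05, beside 1459 of all 5615 tested genes. Of 77 tested cytosolic ribosomal protein genes 30 (38.96%) rose and 0 fell, with a median of 0.25. Over all tested genes 22.0% fell and 21.3% rose. In estradiol against placebo mice the median was 0.20 for oxidative phosphorylation genes, with 7 of 74 (9.46%) higher. For cytosolic ribosomal genes it was -0.05, with 1 of 77 (1.3%) lower. Both shares were below the background of 14.3% higher and 16.0% lower. The corresponding medians of the mitoribosomal genes were -0.14 and 0.094. These are medians at 1 scaling, where the median of all tested genes was -0.014 in placebo minus LFD and 0.0082 in estradiol minus placebo, and no test of one group against another was run. Levels were unlike too: mean sums in placebo mice were 137.4 over the 77 mitoribosomal genes, 653.8 over 82 oxidative phosphorylation genes and 915.7 over 84 cytosolic ribosomal genes. Adding 1 shrinks changes of low genes more. With 0.1 added instead, the mitoribosomal medians were -0.19 and 0.14, and those of the other groups were not taken. Beside these groups of genes, all 12 macrophage markers rose in placebo against LFD mice, while of 12 adipocyte markers 10 fell and 1 rose. In estradiol against placebo mice 11 of 12 macrophage markers fell and 0 rose, while of 12 adipocyte markers 8 rose and 1 fell. The adipocyte marker called against the others in both was Lep, the hormone leptin, and the part of these markers in these differences was not tested.

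**Figure D5:**
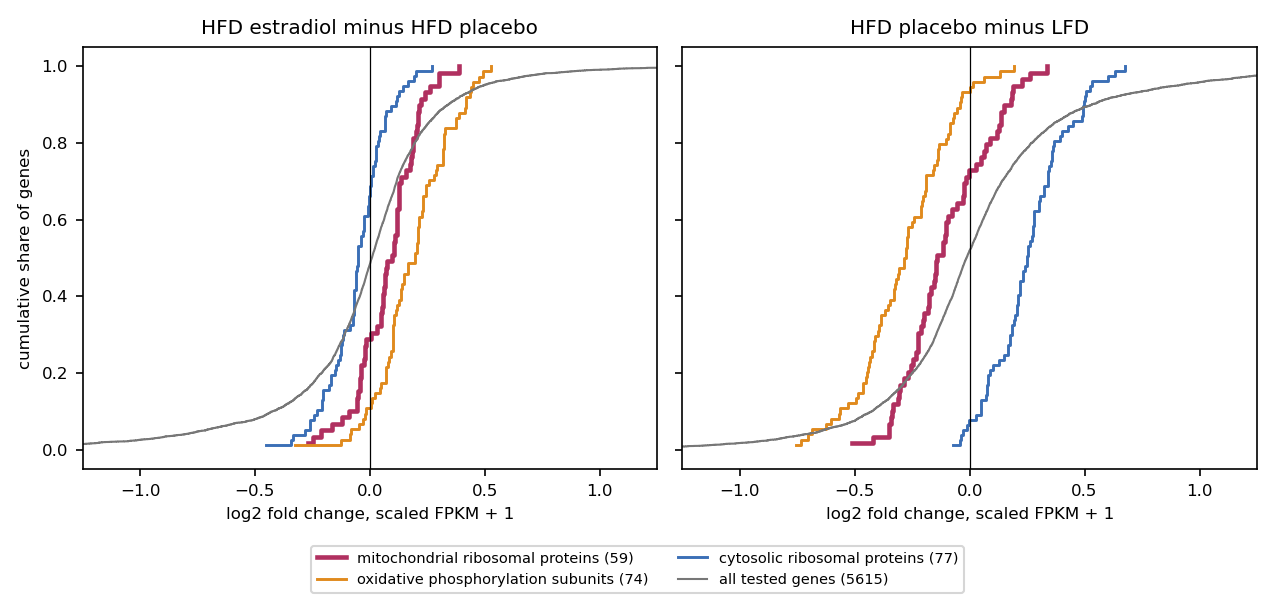
Cumulative share of genes, on the vertical axis, by log2 fold change on the log2(scaled FPKM + 1) scale in HFD estradiol minus HFD placebo (left) and HFD placebo minus LFD (right), for 59 mitochondrial ribosomal, 74 oxidative phosphorylation, 77 cytosolic ribosomal and all 5615 tested genes; values beyond the axis are not drawn. The mitoribosomal curve has its median at 0.094 on the left and at -0.14 on the right, between the curves of the other named groups; with FPKM as deposited its median on the right is 0.67 beside 0.77 for all tested genes.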

How the data were processed

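Periprostatic fat of 15 mice was sequenced as stranded total RNA after ribosomal RNA depletion, per the labels' protocols. The authors deposited FPKM per gene symbol, 1 table per mouse. STAR, Cufflinks and the build mm10 are named in the submitters' processing notes, without versions; the sources used here do not give the annotation or the strand setting. Depth in reads is unknown and was only estimated, from steps of low values within 2% of whole multiples up to 4, in 1636 single-transcript genes of over 2000 bases, shortened by a 200-base fragment.

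FPKM were divided by a median-of-ratios factor per library over 5874 genes (never 0, mean 1 or more). The 5615 genes that reached 1 in 5 or more libraries entered limma 3.58.1 (R 4.3.3) as log2(scaled FPKM + 1); the trend and robust options were on, all 15 libraries were fitted together and group was the only term. P-values were adjusted by Benjamini and Hochberg, with a threshold of 0.05. The 18 genes below the level had exact two-sided permutation tests. On simulated data for the estradiol and placebo comparison over 5615 genes, the fit recovered 74% of genes changed by 0.5 and 96% of those changed by 1 on the log2 scale, and 4.49% of its calls were of genes not changed. Noise was drawn as normal and only a small part of the genes was changed. The 59 members had a median SE of 0.114, against 0.091 for all tested genes, and differed by -0.27 to 0.39 in that comparison. These rates therefore do not give the recovery for the members.

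Genes named are, per comparison, up to 8 past the threshold with the largest rise and up to 8 with the largest fall, the 4 highest and 4 lowest members, every member below the level, members of known role, and up to 4 genes of each pathway list past the threshold, with a few regulators. The members and lists were chosen with earlier results of these data known. Each mouse is 1 library, so p-values measure the spread between mice. Alternatives covered the pseudocount, the filter, the scaling, lane, a replicate block, the groups in the fit and each mouse left out.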

Additional observations from a re-analysis of the deposited data

Results flagged for a closer look

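In 7 of 129 groups of 5 values, 1 mouse lay far from the other 4, by the ratio of its gap to the whole range, and chance alone gives about 1 in 20 such groups. Mrpl51 was 3.84 in LFD 2 and 2.25 to 2.65 in the other LFD mice. Mrpl45 was 1.32 in LFD 2 and 0.742 to 0.881 in the other LFD mice. Mrps5 was 1.36 in placebo 4 and 0.812 to 0.868 in the other placebo mice, and Mrpl17 was 0.507 in placebo 4 and 0.392 to 0.404 in the others. Mrps9 was 0.941 in estradiol 3 and 1.13 to 1.20 in the other estradiol mice. Mrps18b was 1.62 in estradiol 1 and 2.66 to 2.80 in the others. The sum over all 77 genes was 132.3 in estradiol 1 and 148.5 to 154.6 in the other estradiol mice.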

How the results depend on the processing

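Counts of members that passed depended on the scaling, the lane, the filter and single mice. In estradiol against placebo mice, where 3 were higher, 0 were higher with no filter, with FPKM as deposited, with a constant sum, with lane as a term and within lane 6, 1 with a stricter filter, 5 in a fit of only those groups, and 0 to 6 with single mice left out. In placebo against LFD mice, where 0 were higher and 11 lower, FPKM as deposited gave 21 higher and 0 lower, a constant sum 11 higher and 0 lower, no filter 6 lower, a stricter filter 1 higher and 2 lower, lane 5 alone 6 lower, and a fit of only those groups 1 higher and 7 lower. Single mice left out gave 0 to 2 higher and 4 to 13 lower. Over all 5615 tested genes, FPKM as deposited gave 3009 higher and 18 lower, and a constant sum 2104 higher and 195 lower. With no filter 2083 of 18880 genes were higher and 1825 lower, and lane 5 alone gave 1062 higher and 985 lower. In estradiol against LFD mice, where 1 was higher and 0 lower, 0 were higher with no filter, with FPKM as deposited and with lane as a term, and single mice left out gave 0 to 1 higher and 0 to 1 lower. Pseudocounts of 0.1 and 0.5 left these counts as they were. Over all genes in estradiol against placebo mice, 13.8% passed with no filter and 4.9% with FPKM as deposited. There 14.75% passed with a constant sum, 12.66% with lane as a term and 12.13% within lane 6.

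The median of all tested genes moved with the scaling: with FPKM as deposited it was 0.77 in placebo minus LFD, -0.27 in estradiol minus placebo and 0.49 in estradiol minus LFD, and with a constant sum 0.29 and 0.25 in the first and last of these. Signs turned accordingly. With FPKM as deposited Mrps17 was -0.026 in estradiol minus placebo. In placebo minus LFD it gave 0.42 for Mrps34 and Mrpl9, 0.60 for Mrpl32 and Hspd1, 0.41 for Mrps15 and Mrps35, 0.53 for Mrpl51 and Spg7, 0.48 for Mrpl49 and Iars2, 0.40 for Mrps5 and Trap1, 0.55 for Mrps18a, 0.94 for Mrpl54, 0.86 for Mrps12, 0.36 for Tfb2m, 0.33 for Clpp, 0.37 for Clpx, 0.29 for Mterfd1, 0.50 for Tufm and 0.46 for Gfm2. A constant sum gave 0.048 for Mrpl32, 0.016 for Mrps18a, 0.027 for Tufm, 0.045 for Gfm2 and 0.034 for Spg7.

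Mouse numbers are shared between groups but name different animals. Correlations of deviations between mice of the same number ran from -0.21 to 0.36, and the own number was the best match in 3 of 15 cases, so the fit with the replicate block is given only here: 1 higher in estradiol against placebo mice, 0 higher and 10 lower in placebo against LFD mice, and 1 higher in estradiol against LFD mice. Where a call was lost, the cause was not tested. LFD libraries 2 to 5 are the shallowest of the 15, and lane and group cannot be told apart between estradiol and LFD mice.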
